A study of Mus musculus with 20 samples.

Results

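Trunk-like structures are embryo-like aggregates grown from mouse embryonic stem cells that form somites and a neural tube once they are embedded in Matrigel, a basement membrane extract. The comparison described here was between structures taken after 120 h that had been cultured in Matrigel with CHIR99021, called TLSMGC, and the precursor structures taken after 96 h. It used 6 of the 15 bulk RNA-seq libraries of the study, 3 of each group, chosen by their labels, and 20 samples were listed in all, 5 of them single-cell samples that were not analysed here. The question was which genes still changed over 24 h when WNT signalling was kept active.

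All groups came from F1G4 mouse embryonic stem cells that carried the reporters T::H2B-mCherry and Sox2::H2B-Venus. The cells had been grown on feeder cells and freed of them, aggregated in NDiff227 for 48 h and then given a pulse of 3 µM CHIR99021, so the 96h controls had seen the compound as well. Each 96h library was made from 10 pooled structures and each TLSMGC library from 6, picked because they had an asymmetric pole, and the labels call the 3 libraries of a group biological replicates. The dose and timing of CHIR99021 in Matrigel are not given in the sources used here. Beside the TLSMGC values stand those of 2 other groups of 3 libraries taken at 120 h: TLSMG, cultured in Matrigel without CHIR99021, and Gastruloid, cultured without Matrigel. Time, Matrigel and CHIR99021 all differed between the 96h and TLSMGC libraries and cannot be told apart in that comparison, whereas TLSMGC and TLSMG differed by CHIR99021.

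CHIR99021 inhibits GSK3, the kinase that marks β-catenin for destruction, so that β-catenin accumulates and activates genes together with the TCF/LEF factors. In the embryo, WNT and FGF signals from the tailbud keep presomitic mesoderm immature. As cells leave the tailbud, the segmentation clock and retinoic acid made in somites accompany their conversion into epithelial somites and later into sclerotome, which forms cartilage, and dermomyotome, which forms muscle and dermis.

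The 7-letter TCF/LEF motif lies in the promoters of only some WNT target genes, and 3 promoters that hold it are shown because Sp5, Dkk1 and Tnfrsf19 belong to the target genes whose levels follow. The sequences are from RefSeq (GRCm38.p6) and run 5′ to 3′ on the gene's strand from 250 bases before to 50 bases after the transcription start, with matches to CTTTGAT or CTTTGTT, or to their reverse complements, in capitals. The Sp5 promoter (chr2:70474673-70474972, plus strand) held 2 matches, the Dkk1 promoter (chr19:30549447-30549746, minus strand) held 1, and 1 of the Tnfrsf19 promoters (chr14:61037938-61038237, minus strand) held 1.
Sp5: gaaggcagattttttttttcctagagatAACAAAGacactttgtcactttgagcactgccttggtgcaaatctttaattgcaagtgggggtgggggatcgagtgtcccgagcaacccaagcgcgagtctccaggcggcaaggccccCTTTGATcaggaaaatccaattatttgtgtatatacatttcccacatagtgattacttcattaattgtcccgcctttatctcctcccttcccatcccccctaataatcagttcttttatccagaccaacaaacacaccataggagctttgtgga
Dkk1: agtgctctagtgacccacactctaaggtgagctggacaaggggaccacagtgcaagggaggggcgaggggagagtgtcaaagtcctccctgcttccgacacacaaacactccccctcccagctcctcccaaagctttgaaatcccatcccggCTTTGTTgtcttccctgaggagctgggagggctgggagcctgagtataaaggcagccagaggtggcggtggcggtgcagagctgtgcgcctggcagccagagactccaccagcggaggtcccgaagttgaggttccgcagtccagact
Tnfrsf19: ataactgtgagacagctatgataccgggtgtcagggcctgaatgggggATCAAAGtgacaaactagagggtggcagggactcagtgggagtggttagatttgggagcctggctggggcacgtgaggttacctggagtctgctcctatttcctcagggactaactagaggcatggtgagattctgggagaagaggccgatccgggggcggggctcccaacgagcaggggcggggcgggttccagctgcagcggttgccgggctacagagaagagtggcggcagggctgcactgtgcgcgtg
Of the 14 WNT target genes, 10 had a promoter in that table and 3 of these (30.0%) held a match. Among all tested genes with a promoter, 711 of 9607 (7.40%) did. A gene was counted if any of its promoters held a match. Counted by promoter, 3 of the 18 promoters of the WNT target genes (16.7%) held a match, beside 3066 of all 32851 promoters (9.33%). Axin2, Lef1, Sp8, Nkd1, Nkd2, Rnf43 and Tcf7 had no match in these windows, and Notum, Apcdd1, Znrf3 and Lgr5 were not among the entries. A match describes the letters of the window and is not a measured binding site.

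Expression was read as TPM, which corrects for transcript length and scales each library to the same total. The log2 differences below are TLSMGC minus 96h on the log2(TPM + 1) scale, which understates the change of genes with low TPM, and adjusted p-values are from limma with Benjamini-Hochberg adjustment over the 14290 genes whose TPM averaged 1 or more. A gene rose or fell where its adjusted p was under 0.05. Pearson correlations of log2(TPM + 1) over the tested genes were 0.987 to 0.990 within a group and 0.948 to 0.955 between the groups. Coverage per unit of FPKM, a relative measure of depth, was 4.00 to 4.32 in the 96h libraries and 3.12 to 4.74 in the TLSMGC libraries, and 14043 to 14128 against 13810 to 13938 genes reached 1 TPM. Fewer cells of a type and less RNA per cell cannot be told apart in such pooled structures.

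Of the 14290 genes, 5814 (40.7%) changed between 96h and TLSMGC, 2948 (20.6%) upward and 2866 (20.1%) downward. Most changes were small. A log2 difference of at least 1 together with the adjusted p was found for 1078 genes (7.54%), 460 of them higher (3.22%) and 618 lower (4.32%). The largest changes were more often falls: 13 genes fell and 5 rose by 4 or more, and 32 fell and 14 rose by 3 to 4. The median log2 difference of all tested genes was 0.02, and the replicates of the groups did not overlap for 7480 genes (52.3%). Processed pseudogenes were mostly higher among those called, with 396 of 1461 higher and 118 lower, and they can share reads with their parent genes.

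**Figure D1:**
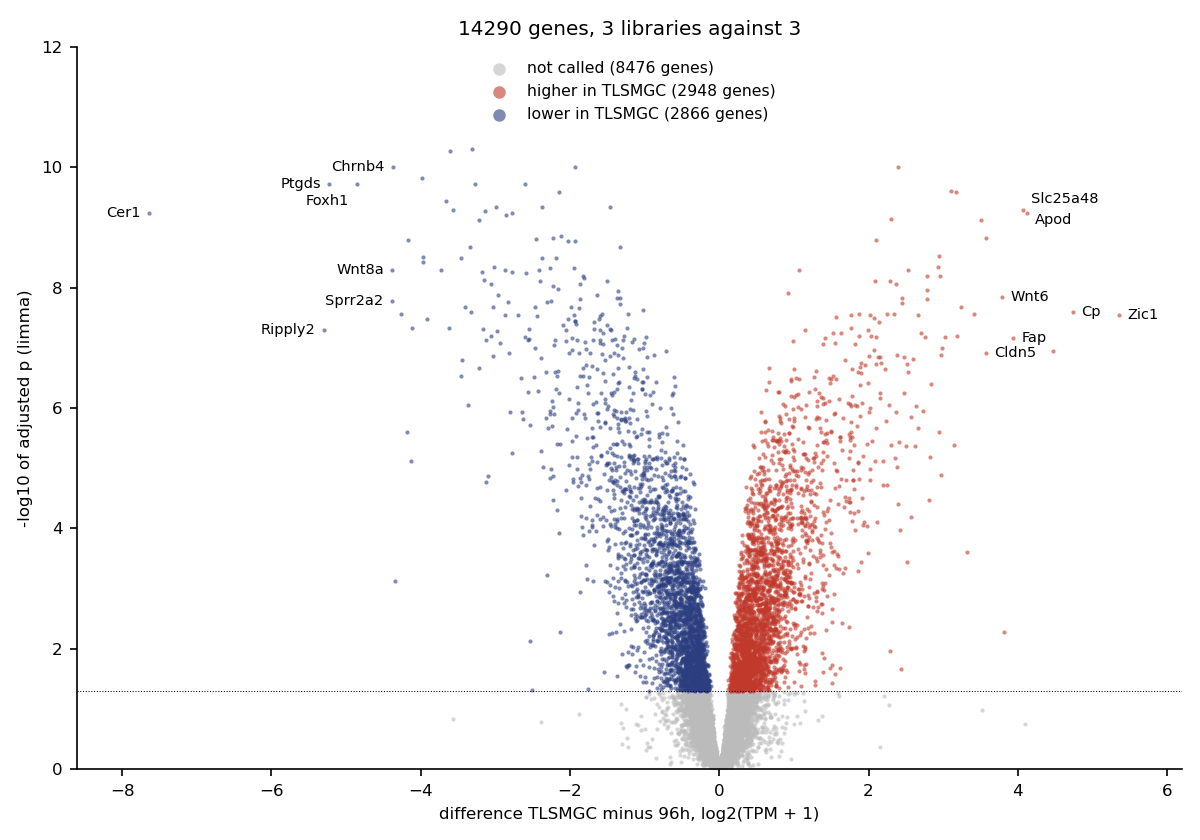
Each point is 1 of the 14290 tested genes, with the log2 difference TLSMGC minus 96h on the x axis and the −log10 adjusted p on the y axis, coloured by whether the gene was higher, lower or not called. The 2948 higher genes lie to the right and the 2866 lower genes to the left, and the labelled points are the largest changes, with Zic1 at 5.35 and Cer1 at -7.64.

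The strongest rise was that of Zic1 (chr9:91358058-91365810, GRCm38), a zinc finger transcription factor of the dorsal neural tube and dorsal somite. It stood at 1.24, 0.916 and 1.07 TPM in the 96h libraries and at 93.4, 85.8 and 73.3 TPM in the TLSMGC libraries, a log2 difference of 5.35 (SE 0.32, adjusted p = 2.80e-08). Every TLSMGC library lay far above every 96h library, and the TLSMG libraries were at 2.37, 10.4 and 3.65 TPM. The strongest fall was that of Cer1 (chr4:82881751-82885148), a secreted antagonist of NODAL, BMP and WNT that is also made in forming somites. Cer1 went from 404, 179 and 138 TPM to a value listed at 0, 0.139 and 0.122 TPM, and fell by 7.64 (SE 0.3, adjusted p = 5.79e-10). The 96h libraries differed among themselves, library 1 being the highest, but the lowest was still far above every TLSMGC library. Among the 15 largest rises and the 15 largest falls there were other secreted signals and antagonists: Wnt6 and Wnt11 rose, and Wnt8a and Lefty2 fell.

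WNT target genes, the direct read-out of the pathway, were mostly higher than at 96h. Of the 14 members tested, 9 rose, 1 fell and 4 did not pass, with a median log2 difference of 0.67 beside 0.02 for all genes and with 20.6% of all genes higher. Notum, a secreted enzyme that inactivates WNT ligands, showed the largest rise, from 6.55, 9.09 and 12.2 TPM to 61.9, 73.6 and 65.6 TPM, a log2 difference of 2.76 (SE 0.18, adjusted p = 6.67e-08). Apcdd1, a membrane inhibitor of the pathway, went from 10.3, 10.7 and 10.5 to 30.5, 31.4 and 27.1 TPM (log2 difference 1.41, adjusted p = 6.94e-08). Nkd1, an intracellular feedback inhibitor, went from 56.4, 64.4 and 67.8 to 173, 145 and 145 TPM (log2 difference 1.28, adjusted p = 4.89e-07). For all 3 genes the lowest TLSMGC library was above the highest 96h library.

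Axin2, the scaffold of the β-catenin destruction complex and a general target, was at 59.3, 57.6 and 53.5 TPM in the 96h libraries and at 106, 93.4 and 104 TPM in the TLSMGC libraries, 1.78 times the 96h mean (log2 difference 0.82 (SE 0.17, adjusted p = 0.00146)). The transcription factor gene Sp5, whose promoter is printed above, rose by 0.86 (SE 0.17, adjusted p = 0.00137), with 73.7, 105 and 116 TPM against 193, 157 and 182 TPM. Tnfrsf19 (0.79), Tcf7 (0.72) and Rnf43 (0.54) rose too. Znrf3, a ubiquitin ligase that removes Frizzled receptors, had a log2 difference of 0.4, and its adjusted p ran from 0.0254 to 0.138 over the fits that left out 1 library. Dkk1, Lgr5, Sp8 and Nkd2 did not pass, at 0.61, 0.61, -0.22 and 0.01. With 1 library left out, 8 to 11 of the 14 members rose. In these fits 1 member fell, or 2 without 96h library 1.

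Lef1 stood apart from the other targets. This DNA-binding partner of β-catenin fell from 365, 317 and 305 TPM to 113, 105 and 98.9 TPM, a decrease by 1.63 (SE 0.12, adjusted p = 2.28e-07), while its relative Tcf7 rose from 96.03, 100.03 and 103 to 171, 163 and 159 TPM. The libraries of the groups did not overlap for either gene. Both lay higher in TLSMGC than in TLSMG, where Lef1 was at 64.9, 64.7 and 75.5 TPM and Tcf7 at 56.8, 55.7 and 60.03 TPM.

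Whether the 24 h change with CHIR99021 differed from that without it is given by the difference between TLSMGC and TLSMG, since both changes are taken from the same 96h libraries. It passed the test for 5842 genes (40.9%), 1490 (10.4%) higher and 4352 (30.5%) lower in TLSMGC. With a log2 difference of at least 1 it was 880 genes (6.16%), 185 higher (1.29%) and 695 lower (4.86%). That split depends on the scaling: the median over all genes was -0.16 in TPM and -0.01 after median-of-ratios scaling, which gave 2621 higher and 2685 lower genes. Of the 14 WNT targets, 12 were higher in TLSMGC than in TLSMG and none was lower, with both scalings. The change of Axin2 from 96h was 0.82 in TLSMGC, -1.23 in TLSMG and -1.53 in Gastruloid. That of Sp5 was 0.86, -3.58 and -4.39, and that of Notum was 2.76, -1.58 and -1.49. Axin2, Sp5 and Notum thus went up from 96h in the libraries labelled with CHIR99021 and were lower than at 96h in both groups labelled without it at 120 h.

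**Figure D2:**
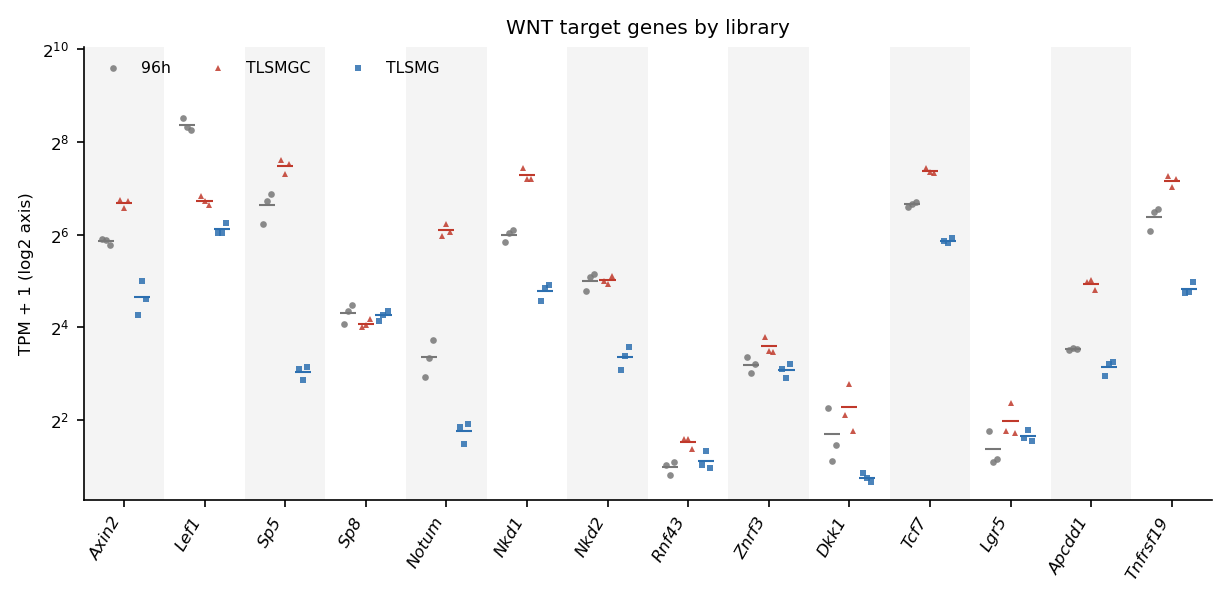
TPM + 1 of the 14 WNT target genes on a log2 axis, with 1 point per library for 96h, TLSMGC and TLSMG and a bar at the mean of the 3 libraries. Notum, Nkd1 and Apcdd1 lie highest in TLSMGC relative to 96h, and Lef1 is the member whose TLSMGC points (98.9 to 113 TPM) all lie below its 96h points (305 to 365 TPM).

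The WNT ligands did not follow the targets. Of 23 ligand and R-spondin genes, 13 passed the filter on low values, of which 3 rose and 7 fell. Wnt3a, the tailbud ligand that drives the canonical pathway, went from 25.2, 37.2 and 40.0 TPM to 3.95, 3.57 and 4.05 TPM and fell by 2.83 (SE 0.16, adjusted p = 1.76e-08). Wnt8a, a ligand of the primitive streak, fell by 4.38 to 0.513 to 1.52 TPM, and Wnt5a, a ligand of the non-canonical branch, fell by 2.01. Rspo3, which amplifies WNT signalling by removing ZNRF3 and RNF43 from the membrane, went from 142, 173 and 169 TPM to 16.6, 18.3 and 20.7 TPM, a fall by 3.06 (SE 0.2, adjusted p = 6.24e-08). In each of these genes the highest TLSMGC library was below the lowest 96h library.

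Wnt6 and Wnt11 went the other way. Wnt6, a ligand made by dorsal ectoderm and known to keep somites epithelial, rose from 1.69, 3.37 and 4.26 TPM to 68.9, 41.8 and 53.04 TPM (log2 difference 3.78 (SE 0.21, adjusted p = 1.45e-08)). Wnt11, which acts mainly through the non-canonical branch, rose from 0.355, 0.809 and 0.289 TPM to 14.6, 11.9 and 12.2 TPM (log2 difference 3.24 (SE 0.19, adjusted p = 2.06e-08)). Neither gene reached 1 TPM in any TLSMG library, so the difference from TLSMG was 5.58 for Wnt6 and 3.26 for Wnt11 (adjusted p = 6.06e-10 and 3.61e-08). Wnt9a was the other ligand that rose (0.44), with an adjusted p of 0.0210 to 0.101 over the fits that left out 1 library.

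Of 20 tested receptors and secreted antagonists 4 were higher, near the 20.6% of all genes, and 7 were lower, beside 20.1% of all genes. Fzd9 (1.4), Sfrp2 (1.15) and Fzd6 (0.74) rose, whereas Sfrp5 (by 3.46), Frzb (by 1.03), Sfrp1 (by 0.77), Fzd4 (by 0.75) and Fzd1 (by 0.72) fell. Sfrp2, a secreted Frizzled-related protein, was at 23.8, 26.2 and 27.8 TPM and then at 60.8, 55.8 and 59.4 TPM. The main co-receptor Lrp6 was at 33.7, 30.5 and 29.5 TPM and at 30.9, 30.2 and 24.8 TPM, a log2 difference of -0.13 that did not pass. Fzd2 and Fzd7, the most abundant Frizzled genes together with Fzd10, did not pass either (0.12 and 0.12).

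Genes of the tailbud and presomitic mesoderm were mostly lower in TLSMGC. Of 14 tested members 10 fell, 1 rose and 3 did not pass, with a median of -1.21. T, the brachyury transcription factor of mesodermal progenitors, went from 76.3, 120.04 and 134 TPM to 42.4, 42.1 and 48.3 TPM and fell by 1.26 (SE 0.19, adjusted p = 0.000178). Tbx6, which specifies presomitic mesoderm, went from 254, 349 and 365 TPM to 60.6, 56.2 and 68.0 TPM and fell by 2.36 (SE 0.26, adjusted p = 9.52e-06). Msgn1, which matures presomitic mesoderm, fell by 1.86 to 35.9, 28.8 and 45.03 TPM. No TLSMGC library reached the lowest 96h library for these 3 genes.

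They nevertheless stayed above TLSMG, where Tbx6 was at 6.16, 3.95 and 7.94 TPM, Msgn1 at 0.892, 0.824 and 1.85 TPM and T at 20.3, 16.7 and 19.4 TPM. The difference of TLSMGC from TLSMG was 3.19 for Tbx6, 4.11 for Msgn1 and 1.19 for T (adjusted p = 7.69e-07, 1.57e-08 and 0.000321). Cdx1, a caudal homeobox gene and WNT target, showed the widest gap of the list, 5.12: it was at 231, 337 and 401 TPM at 96h, 181, 114 and 159.6 TPM in TLSMGC and 2.77, 3.32 and 3.88 TPM in TLSMG. Its relative Cdx2 did not pass against 96h (-0.19, 95% confidence interval -0.63 to 0.25), and Cdx4 was the member that rose, from 3.004, 5.55 and 6.76 TPM to 12.4, 16.4 and 21.8 TPM. Evx1, a tailbud homeobox gene, did not pass either, at 15.4, 19.6 and 21.9 TPM and 17.4, 17.1 and 19.8 TPM. Of the TLSMGC libraries, library 3 was the highest in 11 of the 14 members and library 2 the lowest in 9.

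The segmentation clock and the boundary genes had no member that rose: 13 of 16 fell, and the median was -1.86. Lfng, the glycosyltransferase that makes NOTCH signalling oscillate, went from 239.7, 205 and 195 TPM to 25.3, 22.9 and 29.8 TPM and fell by 2.99 (SE 0.11, adjusted p = 4.64e-10). Hes7, the oscillating repressor at the core of the mouse clock, fell by 1.79 to 36.3, 32.4 and 44.9 TPM, and the NOTCH ligands Dll1 and Dll3 fell by 2.41 and 2.32. Mesp2, which sets the next segment boundary, went from 122, 140.2 and 131 TPM to 5.76, 6.504 and 7.65 TPM, a fall by 4.12 (SE 0.26, adjusted p = 4.60e-08). Ripply2, the repressor that ends Mesp2 activity, went from 208, 185 and 159 TPM to 3.85, 3.64 and 3.54 TPM, a fall by 5.3 (SE 0.34, adjusted p = 5.10e-08). The values of the groups did not overlap in any of these genes.

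Several clock genes were still higher than in TLSMG. The difference from TLSMG was 1.61 for Hes7, 1.02 for Dll1, 1.11 for Dll3 and 1.52 for Mesp1, each with an adjusted p under 0.05, while that of Lfng (-0.22), Ripply2 (-0.43) and Mesp2 (-0.07) did not pass. Hes1, a NOTCH target with many roles outside the clock, was the member nearest to no change from 96h, at 48.7, 49.7 and 51.6 TPM and 55.2, 62.96 and 56.01 TPM. Dkk1 rose in the fits without 96h library 1 or TLSMGC library 3, and these gave 1 higher member instead of 0.

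Somite genes were divided, with 3 of 10 tested members higher and 7 lower. Aldh1a2, the enzyme that makes retinoic acid in somites, fell from 1346, 1166 and 1056 TPM to 158, 119 and 128 TPM, by 3.13 (SE 0.12, adjusted p = 5.37e-10). Foxc2 and Foxc1, forkhead factors of paraxial mesoderm, fell by 1.95 and 1.35. Pcdh8, the protocadherin of the forming boundary, fell by 4.18 and Tbx18, a factor of the anterior part of the somite, by 1.97. Meox1, which is needed for somite patterning, was at 439, 385 and 354 TPM and at 239, 228 and 220.2 TPM and fell by 0.77.

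The members that rose were Tcf15, Uncx and Meox2. Tcf15 (paraxis), which makes somites epithelial, went from 264, 173 and 159 TPM to 329.9, 307 and 329 TPM, a log2 difference of 0.73 (SE 0.18, adjusted p = 0.00588). Uncx, which marks the posterior part of each somite, went from 5.37, 2.59 and 1.82 TPM to 18.04, 16.02 and 18.01 TPM, a log2 difference of 2.19 (SE 0.26, adjusted p = 1.88e-05). So Uncx rose while Tbx18 of the anterior part fell to 0.423, 0.648 and 0.407 TPM. Against TLSMG, Tcf15 was higher by 1.08, Tbx18 was lower with a log2 difference of -2.59, and Uncx did not pass (-0.39).

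More genes of the dermomyotome and of the sclerotome rose than fell. In the dermomyotome list 5 of 9 tested members rose and 2 fell, with a median of 0.88. Dmrt2, a target of PAX3 in the dermomyotome, went from 49.7, 28.8 and 23.3 TPM to 105, 91.98 and 99.7 TPM (log2 difference 1.58 (SE 0.26, adjusted p = 0.000262)). Pax3 was at 27.04, 19.6 and 19.3 TPM and then at 42.99, 43.8 and 35.9 TPM (0.88), Pax7 went from 0.971, 1.13 and 1.24 to 4.39, 4.66 and 4.18 TPM (1.36), and Lbx1 (1.36) and Eya1 (1.13) rose as well. Met, the receptor of migrating muscle precursors, fell by 1.69, and Sim1 fell by 0.9. The muscle regulators Myod1 and Myog, which act after the dermomyotome, were listed at 0 or at most 0.0433 TPM in all 6 libraries, and Myf5 did not pass the filter, at 1.29, 1.099 and 1.29 TPM in TLSMGC.

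In the sclerotome list 5 of 8 tested members rose and 1 fell, with a median of 0.43, and the defining genes Pax1 and Pax9 were below 1 TPM. Pax1, the sclerotome factor induced by hedgehog, was at 0.0273 and 0.0814 TPM in the first 2 of the 96h libraries and listed at 0 in library 3, was at 0.244, 0.349 and 0.205 TPM in TLSMGC and did not pass, whereas the TLSMG libraries held 12.6, 18.7 and 19.6 TPM. Pax9 was at 0.385, 0.602 and 0.144 TPM in TLSMGC. The rises were led by Foxd1 (1.4) and Twist1 (0.99), a factor of many mesenchymal cells that went from 83.9, 62.7 and 56.1 to 144, 138 and 118 TPM. Sox9, the cartilage factor, fell by 2.26 (SE 0.13, adjusted p = 1.69e-08), from 22.7, 17.7 and 16.3 TPM to 3.63, 3.04 and 2.73 TPM. Without 96h library 2 the count of rises was 3, and without TLSMGC library 2 it was 2. Against TLSMG, 7 of the 8 members were lower in TLSMGC with both scalings, and Foxd2 was the extreme with a log2 difference of -5.17.

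**Figure D3:**
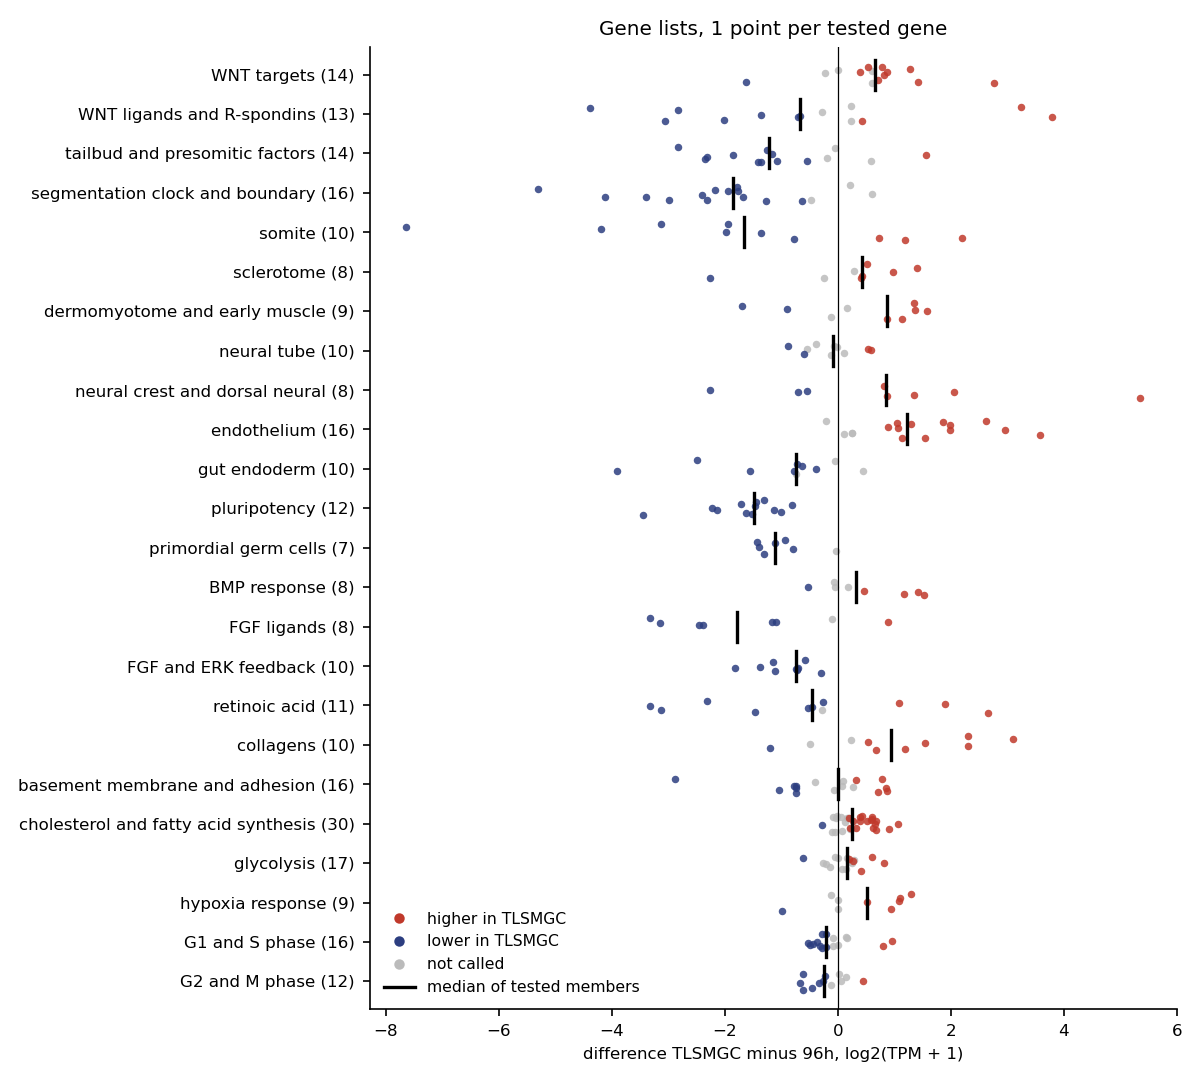
Log2 difference TLSMGC minus 96h of each tested gene in 24 of the gene lists, coloured by whether it was higher, lower or not called, with a black bar at the list's median. The clock list (median -1.86) and the pluripotency list (median -1.49) lie to the left of 0, and the endothelium list (median 1.22) and the WNT target list (median 0.67) to the right.

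The Hox genes, whose order along their clusters matches their order along the body axis, differed in direction by paralogue number. Among the 15 tested genes of paralogues 1 to 5, 2 rose and 10 fell, with a median of -0.57. Among the 12 tested genes of paralogues 6 to 9, 10 rose and 1 fell, with a median of 1.45. Hoxb1, the earliest gene of its cluster, went from 227, 228 and 224 TPM to 59.6, 47.9 and 62.6 TPM and fell by 1.99 (SE 0.11, adjusted p = 2.06e-08). Hoxa9, a gene of the posterior trunk, went from a value listed at 0 in library 2 and at most 0.0914 TPM in the others to 3.801, 7.78 and 8.76 TPM, a log2 difference of 2.83 (SE 0.22, adjusted p = 4.01e-07). Hoxc6 (2.52), Hoxc9 (2.48), Hoxa7 (2.14) and Hoxd9 (2.01) rose by 2 or more. Hoxb9 was the most abundant of the posterior genes and went from 34.8, 51.6 and 71.1 TPM to 93.9, 101 and 110.3 TPM.

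The direction changed within clusters. In HoxB, Hoxb1 to Hoxb6 fell, Hoxb7 and Hoxb9 rose and Hoxb8 did not pass (-0.06), although the calls of Hoxb3 and Hoxb6 were lost in at least 4 of the 6 fits that left out 1 library. All 5 tested HoxC genes rose, Hoxc4 and Hoxc5 being the 2 members of paralogues 1 to 5 that did. The 12 genes of paralogues 10 to 13 stayed below the filter, and the highest TLSMGC mean among them was that of Hoxc10, 0.689 TPM. Values of the neighbours Hoxd3 and Hoxd4, which overlap in the annotation, are uncertain because their reads can be divided in different ways.

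The posterior rise was smaller than in Matrigel alone. Of the 12 genes of paralogues 6 to 9, 10 were lower in TLSMGC than in TLSMG and 1 was higher, and after median-of-ratios scaling 9 were lower. Hoxc9 had changed from 96h by 2.48 in TLSMGC and 3.99 in TLSMG, and Hoxb9 by 1.00 and 2.5. Hoxd9 was the member that was higher in TLSMGC (1.01, adjusted p = 0.00395).

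**Figure D4:**
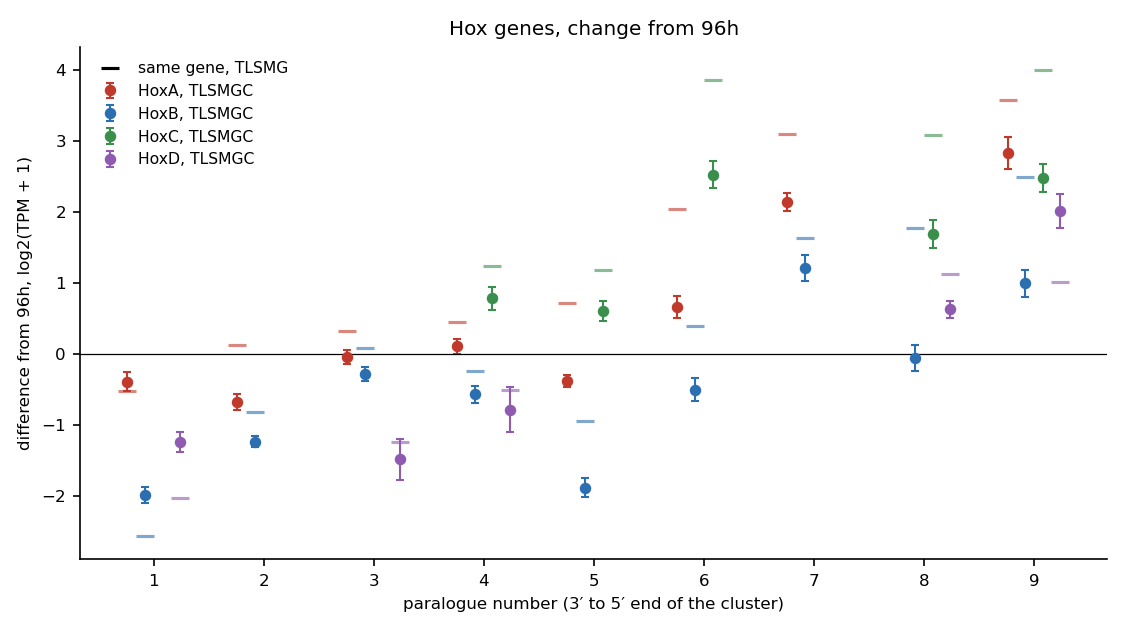
Log2 difference from 96h of each tested Hox gene in TLSMGC by paralogue number, 1 colour per cluster, with the SE as error bar, and dashes for the change in TLSMG. Paralogues 1 to 5 lie mostly below 0 and paralogues 6 to 9 mostly above it, with the TLSMG dash above the TLSMGC point for most of the latter.

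Of 10 tested neural tube genes 2 rose and 2 fell, a share of 40.0% that is near the 40.7% of all genes. The rises (Sox1 0.59, Nkx6-1 0.54) were each lost in at least 4 of the 6 fits that left out 1 library, which gave counts of 0 or 1. Sox2, the neural progenitor factor and one of the reporter genes, was at 17.6, 27.4 and 32.1 TPM and at 24.6, 28.4 and 27.8 TPM, a log2 difference of 0.1 with a 95% confidence interval of -0.26 to 0.46. Sox3 was at 10.6, 15.9 and 20.3 TPM and at 11.5, 13.7 and 18.8 TPM (-0.06), and the values of the groups overlapped for both genes. Hes5, a NOTCH target of neural progenitors, fell by 0.87 and Olig2 by 0.59. Pax6, which marks the neural tube, was listed at 0 or below 1 TPM in all 6 libraries, against 5.31, 14.99 and 11.3 TPM in TLSMG. In TLSMG, Sox2 stood at 67.4, 90.3 and 84.1 TPM, and 7 of the 10 members were lower in TLSMGC than there (6 after median-of-ratios scaling).

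Neuronal genes were few. Of 4 tested members Stmn2 fell from 13.6, 17.2 and 18.5 to 0.741, 1.26 and 1.75 TPM, Isl1 fell by 1.6, Tubb3 did not pass, and the rise of Elavl4 (0.33) was lost without 96h library 2 or 3 or TLSMGC library 2 or 3. In the list for neural crest and dorsal neural genes 5 of 8 tested members rose and 3 fell. Zic1, Pax3, Pax7, Snai2 (2.05) and Ets1 (0.82) rose, and these also act in somites, mesenchyme or endothelium. The defining crest genes Sox10, Foxd3, Tfap2a and Tfap2b stayed at or below 0.203 TPM in the TLSMGC libraries.

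Most endothelial genes were higher: 12 of 16 tested members rose, with a median of 1.22, and 4 did not pass. Cldn5, a tight junction protein of endothelium, went from 0.102, 0.253 and 0.109 TPM to 14.1, 19.3 and 7.42 TPM (log2 difference 3.57 (SE 0.25, adjusted p = 1.24e-07)). Cdh5, the cadherin that defines endothelial junctions, went from 0.198, 0.0718 and 0.193 TPM to 8.78, 15.3 and 3.58 TPM (log2 difference 2.97 (SE 0.34, adjusted p = 1.28e-05)). Esam, another junction protein, was listed at 0 in 2 of the 96h libraries and reached 5.26, 9.34 and 3.27 TPM. The receptor genes Tie1 and Tek, at most 0.214 TPM in the 96h libraries, reached 3.27, 7.78 and 1.48 TPM and 3.195, 6.79 and 1.51 TPM, and the endothelial factors Sox18 (1.86) and Sox7 (1.54) rose as well. All TLSMGC libraries lay above all 96h libraries in these genes.

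Several members with a measurable level at 96h did not pass. Etv2, the factor that starts the endothelial programme, was at 4.22, 3.69 and 3.58 TPM and 2.595, 4.75 and 2.54 TPM, and the other members without a call were Pecam1, Flt1 and Egfl7 (0.26, 0.25 and 0.11). Kdr, the VEGF receptor, had a log2 difference of 1.13, but its adjusted p was 0.00130 to 0.104 with 1 library left out. Likewise Emcn had 1.04 (2.92e-05 to 0.0604 with 1 library left out) and Lmo2 0.88 (0.0104 to 0.130). The TLSMGC libraries differed in an ordered way: library 2 was the highest in 15 of the 16 genes and library 3 the lowest in 14, and 9 to 11 members rose when 1 library was left out. Cldn5 in TLSMGC was below TLSMG, at 69.04, 59.8 and 58.3 TPM, and 15 of the 16 members were lower than in TLSMG (14 after median-of-ratios scaling), the exception being Lmo2 (1.67).

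**Figure D5:**
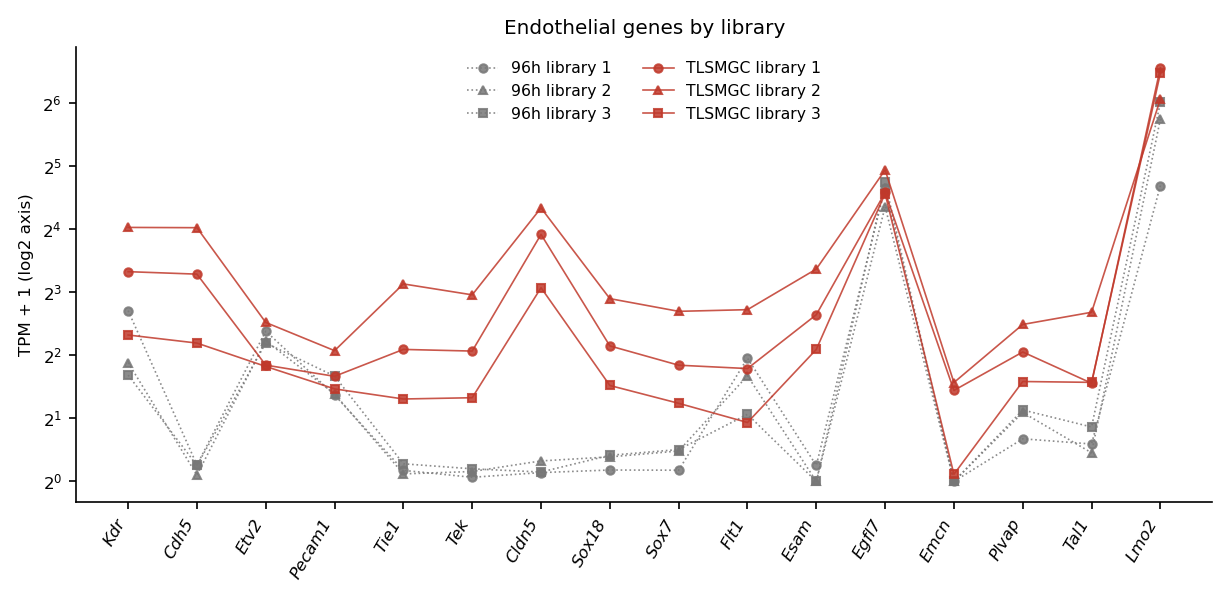
TPM + 1 of the 16 endothelial genes on a log2 axis, with 1 line per library, dotted grey for 96h and red for TLSMGC. The TLSMGC lines lie above the 96h lines for Cldn5, Cdh5, Esam, Tie1 and Tek and run parallel to each other, with library 2 at the top in 15 genes, whereas for Egfl7, Etv2 and Flt1 the lines of the groups overlap.

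Blood genes were near 0. Haemoglobin genes Hbb-bh1, Hbb-y and Hba-x were listed at 0 in all 6 libraries, and Runx1, the 1 tested member, fell by 0.84, a call that was lost without 96h library 1 or TLSMGC library 2. Gut endoderm genes had 0 of 10 members higher and 7 lower. Trh, the gene of thyrotropin-releasing hormone, fell from 267, 181 and 141 TPM to 10.2, 12.1 and 12.7 TPM, by 3.91 (SE 0.24, adjusted p = 3.35e-08), Cdh1, the epithelial cadherin, by 2.49 and Krt8 by 1.55. The endoderm factors Sox17, Foxa1 and Foxa2 did not pass (0.45, -0.05 and -0.74), and Sox17 was at 5.91, 13.9 and 2.48 TPM in the TLSMGC libraries, again highest in library 2. Without 96h library 1 the list had 4 falls and without TLSMGC library 3 it had 3.

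Other mesoderm changed in part. Of 6 tested lateral plate and cardiac genes 4 fell, led by the sarcomeric actin gene Actc1 (by 2.81) and Gata6 (by 1.86), and Tnnt2, a troponin gene, rose from 0.1203, 0.715 and 0.295 to 9.11, 5.85 and 4.08 TPM. In the intermediate mesoderm list 2 of 8 rose, Pax2 (1.09) and Emx2 (1.03), both factors of the kidney primordium, and 2 fell, Osr1 (by 1.96) and Lhx1 (by 1.7). Hand1 was at 9.75, 0.977 and 0.445 TPM at 96h, so library 1 was the high one there, and it did not pass.

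All 12 pluripotency genes fell, with a median of -1.49. Pou5f1 (Oct4) went from 84.98, 134 and 128 TPM to 6.98, 7.56 and 15.8 TPM and fell by 3.45 (SE 0.25, adjusted p = 1.58e-07). Nanog went from 9.36, 18.6 and 15.7 TPM to 2.95, 3.01 and 5.14 TPM and fell by 1.71 (SE 0.24, adjusted p = 7.36e-05), and Utf1 fell by 2.14. The groups did not overlap for these genes, but they remained detectable in every TLSMGC library. TLSMGC library 3 was the highest of its group in 11 of the 12 genes, and the summed level of the list was 45.6, 43.1 and 81.4 TPM in the TLSMGC libraries against 195, 335 and 285 TPM at 96h. With 1 library left out 11 or 12 of them fell. Relative to TLSMG 10 of the 12 were lower in TLSMGC, and 9 after median-of-ratios scaling.

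Germ cell genes shared that direction, with 6 of 7 tested members lower, such as Tfap2c (by 1.4), Ifitm3 (by 1.42) and Prdm1 (by 1.11). Kit, a receptor that is also found outside germ cells, was at 10.04, 12.5 and 10.8 TPM and 10.7, 11.4 and 10.5 TPM. The list for DNA methylation and Lin28 genes had 1 of 13 higher and 6 lower, beside 20.6% of all genes higher and 20.1% lower. Dnmt3b, the de novo methyltransferase of the epiblast, fell from 106, 102 and 101 TPM to 51.7, 50.2 and 49.9 TPM, Lin28a fell by 0.58, and Lin28b rose by 0.49. Of the 8 feeder fibroblast markers 4 were tested: Col1a1 (0.54), Col1a2 (2.31) and Col3a1 (1.55) rose and Thy1 fell by 1.26. The summed level of the list was 8.9 to 12.6 TPM at 96h and 16.5 to 24.3 TPM in TLSMGC, with Lum, Dcn and S100a4 listed at 0 in all TLSMGC libraries. The part of feeder cells in these values was not tested.

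Most FGF signalling genes fell. Of 8 tested ligand genes 6 fell and 1 rose, with a median of -1.78. Fgf8, the tailbud ligand, went from 57.6, 73.2 and 77.3 TPM to 29.3, 28.7 and 32.3 TPM and fell by 1.17 (SE 0.16, adjusted p = 6.64e-05). Fgf4, its partner in the presomitic mesoderm, went from 19.4, 28.6 and 30.4 TPM to 1.505, 1.46 and 2.05 TPM and fell by 3.32 (SE 0.19, adjusted p = 2.52e-08), and Fgf18, Fgf15 and Fgf3 fell by 3.15, 2.46 and 2.39. Fgf17, another tailbud ligand, was at 23.3, 30.8 and 36.9 TPM and 24.2, 25.4 and 34.5 TPM and did not pass, and Fgf9 rose by 0.89.

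All 10 feedback genes that FGF and ERK induce fell, with a median of -0.74, and 8 or 9 fell with 1 library left out. Dusp6, the ERK phosphatase, went from 135, 155 and 165 TPM to 65.7, 66.3 and 71.7 TPM and fell by 1.15 (SE 0.11, adjusted p = 2.52e-06). Spry4 fell by 1.81, Spry2 by 1.37 and Spred2 by 1.11, and the transcription factor genes Etv4 and Etv5 fell by 0.72 and 0.75. Spred1 and Il17rd, at -0.29 and -0.72, had the highest adjusted p of the list.

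In the retinoic acid pathway 3 of 11 tested members rose and 7 fell. Beside the fall of the synthesis gene Aldh1a2, the degrading enzyme gene Cyp26a1 fell from 18.4, 18.3 and 20.04 TPM to 2.36, 3.09 and 3.63 TPM, by 2.32, and the receptor gene Rarb, itself a target, fell by 1.46. Rdh10, which makes the retinal that ALDH1A2 oxidises, rose from 11.2, 7.38 and 7.11 TPM to 64.7, 59.3 and 51.5 TPM, and Stra6, the retinol importer, rose from 65.5, 70.1 and 69.9 TPM to 313, 204 and 264 TPM (1.89). The binding protein gene Crabp2 rose by 1.08. Without 96h library 3 the list had 4 falls, since Crabp1, Rara and Rarg were lost. The call of Crabp1 was lost in all 6 fits that left out 1 library (adjusted p 0.0587 to 0.153).

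BMP genes rose more often than they fell. Of 8 tested response genes 4 rose and 1 fell: Id2 went from 21.9, 19.5 and 15.5 TPM to 59.98, 49.2 and 60.6 TPM (1.53), Msx1 rose by 1.42, Msx2 by 1.17 and Bambi by 0.46, and Id1 fell by 0.53. Id3, Smad6 and Smad7 did not pass. Against TLSMG, 5 of the 8 members were lower in TLSMGC and 2 were higher (4 and 3 after median-of-ratios scaling). Among ligands and antagonists 5 of 10 rose and 3 fell. Bmp5 (2.01) and Bmp7 (0.79) rose with the antagonists Nog, from 1.39, 1.10 and 0.7301 TPM to 7.51, 8.15 and 6.57 TPM, Grem1 (1.61) and Fst (0.72), whereas Bmp2 fell by 0.98.

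Genes of the extracellular matrix moved in both directions. Fn1, the fibronectin gene, went from 1397, 1133 and 1073 TPM to 145, 194 and 151 TPM and fell by 2.87 (SE 0.14, adjusted p = 5.07e-09), and Lama1, a laminin chain, fell by 1.04. The basement membrane collagens Col4a1 (0.72) and Col4a2 (0.78) and the laminin chain Lama5 (0.86) rose. In that list 5 of 16 rose and 6 fell, a called share of 68.8% beside 40.7% of all genes. Matrigel holds basement membrane proteins, but the values are of RNA.

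Of 10 tested collagen genes 7 rose and 1 fell. Col2a1, the cartilage and notochord collagen, went from 8.43, 8.21 and 6.84 TPM to 85.9, 72.2 and 67.1 TPM (log2 difference 3.1 (SE 0.11, adjusted p = 2.43e-10)). Col18a1, a basement membrane collagen, went from 46.95, 44.3 and 54.1 TPM to 279, 221 and 228 TPM (log2 difference 2.3 (SE 0.09, adjusted p = 7.09e-10)), and Col1a2 and Col3a1 rose by 2.31 and 1.55. Col6a1 fell by 1.19, and without 96h library 3 Col9a1 passed too, giving 2 falls.

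Related mesenchymal factors moved in opposite directions: Snai1 fell from 113, 117 and 121 TPM to 28.8, 28.7 and 32.2 TPM while its relative Snai2 rose from 1.43, 1.27 and 1.41 TPM to 8.79, 11.3 and 6.82 TPM, and Prrx2 fell from 200.1, 108 and 95.5 TPM to 17.98, 25.1 and 19.8 TPM while Prrx1 rose from 2.24, 1.17 and 0.601 TPM to 21.7, 11.8 and 12.7 TPM. Both pairs encode related transcription factors. The list held 6 rises and 4 falls among 11 members. Of the Eph receptors and ephrins, which set tissue boundaries, 3 of 15 rose, near the share of all genes, and 7 fell. Epha1 (by 2.47), Epha4 (by 2.18) and Efnb2 (by 1.91) fell, and Epha5 (1.75) and Epha7 (1.7) rose.

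Growth genes that are imprinted, that is expressed from 1 parental copy, showed 5 rises and 3 falls among 12. Mest, one of the 15 largest rises of all genes, went from 84.7, 60.8 and 72.04 TPM to 704, 693 and 577 TPM (log2 difference 3.17 (SE 0.11, adjusted p = 2.53e-10)). Grb10, an inhibitor of insulin and IGF receptors, went from 208, 196 and 197 TPM to 445, 421 and 369.7 TPM, and Phlda2, a growth inhibitor of the placenta, fell from 66.4, 70.6 and 79.05 TPM to 14.5, 16.7 and 20.4 TPM. Peg3 fell by 1.78 and Peg10 by 1.17, and Peg10 overlaps its neighbour Sgce in part. Igf2 varied between libraries, at 194, 86.9 and 265 TPM and 618, 212 and 178 TPM, and did not pass. Among the IGF genes 3 of 11 rose and 3 fell, a called share of 54.5% beside 40.7% of all genes. Igfbp5, a secreted binding protein, rose most, from 4.16, 3.96 and 4.95 to 50.3, 48.9 and 28.8 TPM. In TLSMG it was at 384, 443 and 565 TPM.

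Genes for cholesterol and fatty acid synthesis were higher in 17 of 30 cases and lower in 1, with a median of 0.25, and 13 to 18 were higher with 1 library left out. The sizes were small: Msmo1 had a log2 difference of 0.91, Stard4 0.67, Scd2 0.62, Mvd 0.61 and Fasn 0.43. Glycolysis genes had 5 of 17 higher and 1 lower, a called share of 35.3% that is below the 40.7% of all genes. Pgk1 went from 700.1, 705 and 633 TPM to 1230.4, 1118 and 1227 TPM, Tpi1 rose by 0.61, and the glucose transporter gene Slc2a1 fell by 0.61. Without 96h library 3 that list had 3 rises. Of 9 tested hypoxia response genes 5 rose and 1 fell: Bnip3 (1.3), Ndrg1 (1.1), Pdk1 (1.09) and Egln1 (0.94) rose, Vegfa did not pass (0.00), and Ddit4 fell by 0.99.

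Replication genes were slightly lower. Of 16 genes of G1 and S phase 9 fell and 2 rose. Mcm2 to Mcm7, the subunits of the replicative helicase, all fell, by 0.21 to 0.52, while Ccnd2, a cyclin that drives G1, rose from 102, 118 and 135 TPM to 248, 229.8 and 212 TPM. Of 12 genes of G2 and M phase 7 fell and 1 rose. Cdc20, an activator of the anaphase-promoting complex, fell by 0.61, Plk1 by 0.67 and Ccnb2 by 0.61, and Mki67 did not pass (-0.11). Cdkn1a (p21), an inhibitor of cyclin-dependent kinases, went from 26.04, 37.9 and 28.1 TPM to 82.9, 66.03 and 67.1 TPM, a log2 difference of 1.22 (SE 0.3, adjusted p = 0.00546). It was the 1 rise among 12 cell cycle inhibitors and p53 targets, of which 1 fell: Trp53inp1, a p53 target, by 0.66 (adjusted p = 0.0109). The called share of that list was 16.7%, below the 40.7% of all genes. Of the others, Mdm2, Bax, Ccng1 and Zmat3 did not pass (-0.13, 0.09, -0.05 and 0.24).

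Cytosolic ribosomal protein genes had 23 of 79 higher and 1 lower, with a median of 0.12, and share reads with many pseudogenes. Their called share of 30.4% was below the 40.7% of all genes, and TLSMGC library 3 was the highest of its group in 69 of the 79. Nuclear genes of oxidative phosphorylation had 13 of 80 higher and 10 lower, a called share of 28.8% beside 40.7% of all genes, and the 13 mitochondrially encoded genes gave no call. The largest difference in mean TPM was that of Gm42418, a predicted gene, which was at 30646, 30692 and 27346 TPM at 96h and at 13697, 30774 and 4004 TPM in TLSMGC. Its level differed more between TLSMGC libraries than between groups, and it did not pass. CT010467.1, an rRNA annotated over the same place on the opposite strand, fell by 2.54 (adjusted p = 0.00733) and passed in all 6 fits that left out 1 library. The entries Gm26377 and Gm23935, annotated as small RNAs, rose by 0.77 and fell by 1.07, and the latter was lost without 96h library 1 or 2 or TLSMGC library 1 or 3. Gm26377 lies within Eef1a1 on the same strand, so its value is uncertain and may come from reads of that gene. Eef1a1, a translation elongation factor and the last of the 5 largest differences, did not pass (0.14). With TPM rescaled without Gm42418 and Gm23935, an alternative chosen after seeing the data, 2689 genes were higher and 3186 lower in TLSMGC than at 96h.

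Immediate early and stress genes had 2 of 10 higher and 1 lower, a called share of 30.0% that is below the 40.7% of all genes. Jun fell by 2.04, and Atf3 and Asns rose by 0.97 and 0.47.

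The largest rises outside the lists were Cp, Slc25a48, Fap, Plch1, Rab3il1, Sparcl1, Ntn5 and Serpinf1. Cp, the copper-carrying ferroxidase ceruloplasmin, was listed at 0 in 2 of the 96h libraries and at 0.100 TPM in library 3 and reached 28.9, 24.2 and 26.7 TPM. Fap, a protease of mesenchymal cells, reached 20.8, 12.99 and 11.1 TPM, near the 8.65, 10.2 and 15.5 TPM of TLSMG. Plch1, a phospholipase, went from 6.97, 7.17 and 6.99 TPM to 112, 86.0 and 87.7 TPM. Slc25a48, a mitochondrial carrier, and Apod, a lipid carrier, stayed below 1 TPM in TLSMG and reached 29.2, 18.98 and 22.3 TPM and 35.2, 22.8 and 21.4 TPM in TLSMGC. The difference between TLSMGC and TLSMG was 4.18 for Slc25a48, 4.47 for Apod and 0.35 for Fap, where the last did not pass.

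The largest falls outside the lists were Ptgds, Foxh1, Sprr2a2, Chrnb4, Lefty2, Car3, Kcnk3 and Samd3. Foxh1, the DNA-binding partner of SMAD2 in NODAL signalling, went from 243, 187 and 171 TPM to 4.56, 7.23 and 6.08 TPM and fell by 4.85 (SE 0.16, adjusted p = 1.89e-10). Ptgds, prostaglandin D synthase, went from 52.8, 47.7 and 42.4 TPM to at most 0.655 TPM and fell by 5.22. Car3, a carbonic anhydrase, fell from 50.98, 54.9 and 49.2 TPM to 1.76, 1.95 and 2.12 TPM, and Kcnk3, a potassium channel, from 20.2, 21.5 and 18.1 TPM to 0.248, 0.314 and 0.403 TPM. Foxh1, Ptgds and Kcnk3 were about as low in TLSMG, with differences between TLSMGC and TLSMG of -0.24, -0.13 and -0.21 that did not pass. Sprr2a2 has near-identical copies, so its value is uncertain.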

How the data were processed

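RNA of pooled structures was made into stranded polyA libraries and sequenced, per the labels' protocols. The submitters' processing notes name cutadapt 2.4, STAR 2.7.3a, StringTie 2.0 and the mm10 build, and the options used are not given in the sources used here. The authors deposited 1 StringTie table per library with TPM, FPKM and coverage for each of 54446 gene IDs. TPM as deposited was used for the main results, FPKM as deposited for an alternative, and the coverage column as deposited only for relative depth, since read counts were not used here. Rows of 1 gene ID were summed, and coordinates and gene types were taken from the annotation of GRCm38, in which 54409 IDs matched.

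A gene was tested if its TPM averaged 1 or more in the 15 bulk libraries. log2(TPM + 1) was fitted in limma 3.58.1 (R 4.3.3) with the 5 groups in 1 model, no replicate block and a variance trend, and contrasts were tested 2-sided with Benjamini-Hochberg adjustment at 0.05. Tables and figures were made with Python 3.11.15, pandas 2.3.3 and numpy 2.4.6. The fit was tested on simulated data. StringTie divides reads among overlapping genes and copies, so their values are less certain, and TPM shares 1 total, so a few abundant RNAs shift all others.

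Named genes were the 15 largest rises and falls with a mean of at least 5 TPM in the higher group, an adjusted p under 0.05, no overlap of replicates and a symbol other than a predicted or clone name, the 5 largest differences in mean TPM, and members of 48 lists. The lists have 759 entries of 739 genes, of which 632 were tested and 107 were not. The genes and lists were chosen with earlier results of these data known. No set test was run. Alternatives were another scaling, FPKM, a GC content and length correction, other filters, pseudocounts and variance priors, a fit of the 2 groups alone, a threshold on size, a replicate block and leaving out each library. The replicate numbers were not used to pair the libraries. Deviations of same-numbered 96h and TLSMGC libraries correlated at 0.0291, 0.0319 and 0.0573, and those of differently numbered ones at -0.077 to 0.0429. With 3 libraries a group, these values cannot exclude a pairing.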

Additional observations from a re-analysis of the deposited data

Results flagged for a closer look

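For 25 of the described genes the change from 96h was of opposite sign in TLSMGC and in TLSMG, with an absolute log2 difference of at least 0.5 and a call in each. An adjusted p under 0.05 between TLSMGC and TLSMG was also required, so that call is part of the selection and no separate support. The 25 were not set beside a count over all genes at that size. Both changes use the same 96h libraries. Opposite calls with no minimum size were found for 43 of the 653 described genes and for 367 of all 14290 tested genes. The described genes were chosen with earlier results of these data known.

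In 11 genes the change was upward with CHIR99021 and downward without it. Among WNT targets, TLSMGC exceeded TLSMG by 4.44 for Sp5, 4.34 for Notum, 2.50 for Nkd1, 2.33 for Tnfrsf19, 2.05 for Axin2 and 1.5 for Tcf7. The ligand gene Wnt6 differed by 5.58, the retinol importer gene Stra6 by 2.94, the cell cycle inhibitor gene Cdkn1a by 2.38, the haematopoietic and endothelial factor gene Lmo2 by 1.67 and the activin antagonist gene Fst by 1.26. Stra6, for instance, was at 65.5, 70.1 and 69.9 TPM at 96h, 313, 204 and 264 TPM in TLSMGC and 26.3, 32.6 and 40.5 TPM in TLSMG. The call of Lmo2 from 96h was lost in 3 of the 6 fits that left out 1 library.

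In 14 genes the change was downward with CHIR99021 and upward without it. The fatty acid transporter gene Cd36 differed by -4.27, at 6.27, 5.02 and 4.81 TPM at 96h, 1.37, 0.989 and 0.972 TPM in TLSMGC and 40.1, 34.9 and 43.97 TPM in TLSMG. The imprinted genes Peg3 and Peg10 differed by -3.56 and -2.89, the anterior somite gene Tbx18 by -2.59, the receptor gene Fzd4 by -2.24 and the germ cell and endoderm factor gene Prdm1 by -2.20. Olig2 differed by -1.78, Nid1 by -1.59, Wnt4 by -1.57, Trp53inp1 by -1.42, Spry1 by -1.40, Igfbp3 by -1.31, Id1 by -1.20 and Gli1 by -1.11.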

How the results depend on the processing

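The count of changed genes between TLSMGC and 96h stayed within 1.5 times the reported one under every alternative but the threshold on size, which left 1078 genes, 460 higher and 618 lower. Leaving out 1 library gave 4876 to 5406 changed genes, 2393 to 2818 higher and 2437 to 2610 lower. With the replicate block 5580 changed, 2802 higher and 2778 lower, and the block gave 5599, 1438 and 4161 for TLSMGC against TLSMG. In that comparison the size threshold left 880 genes, 185 higher and 695 lower, and 1 library left out gave 4703 to 5392, 1199 to 1417 and 3420 to 4124. Its direction depends on scaling: 2621 were higher and 2685 lower after median-of-ratios scaling, 3102 and 2449 after the GC content and length correction, and 2095 and 2844 in FPKM. The cause was not tested.

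Of 383 called genes among the 653 described, 302 were called under all alternatives but the size threshold, and 81 were lost under at least 1. The 30 largest rises and falls were kept under all of them. Hprt had -0.013 after the GC content and length correction. Medians of 9 of the 48 lists changed sign in 27 of 909 values. The changed medians were at most 0.104 in size, but the main medians reached 0.41, that of the mitochondrially encoded genes. WNT receptors and antagonists and basement membrane genes, with medians near 0, changed sign 6 times each. Others were -0.0167 in FPKM and -0.0392 at a mean TPM of at least 5 for HoxA, 0.0688 for stress genes at that filter, and after the GC content and length correction 0.0362 for the neural tube, 0.0587 for stress genes and -0.0352 for mitochondrially encoded genes. With 1 library left out the median ran from -0.1036 (without 96h library 3) to 0.0335 for WNT receptors and antagonists and from -0.104 (without TLSMGC library 1) to 0.3686 for IGF genes. Read counts were not used here, so no counting error can be given, and genes near 1 TPM are the least certain.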

Other observations

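Genes of NODAL signalling, which patterns the early embryo and the left side of the body, were picked out after their values were seen, beginning with Foxh1, Lefty2 and Cer1 among the largest falls. Nodal itself went from 10.9, 17.9 and 15.1 TPM to 0.855, 0.277 and 0.910 TPM, a fall by 3.21 (SE 0.24, adjusted p = 2.20e-07). The secreted inhibitor gene Lefty1 went from 8.19, 23.96 and 19.4 TPM to 0.461, 0.959 and 1.59 TPM and fell by 3.1, and Lefty2 fell by 4.26. The co-receptor gene Tdgf1 fell by 2.22. Gdf1, a ligand that pairs with NODAL, rose from 4.44, 2.96 and 3.15 TPM to 5.57, 5.004 and 4.703 TPM (log2 difference 0.44 (SE 0.13, adjusted p = 0.0156)).

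The Zic family did not move as one, which was also noticed after the values were seen. Zic4, the neighbour of Zic1 on chromosome 9, went from 0.0823, 0.0919 and 0.164 TPM to 8.83, 6.65 and 7.35 TPM (log2 difference 2.94 (SE 0.28, adjusted p = 2.48e-06)). Zic2 and Zic5 fell by 0.54 and 0.71. The nuclear receptor genes Nr2f1 and Nr2f2 (COUP-TFs) both rose: Nr2f1 from 1.56, 1.46 and 0.9504 TPM to 12.5, 15.5 and 11.1 TPM and Nr2f2 from 6.56, 3.71 and 3.37 TPM to 43.4, 44.5 and 36.7 TPM. Pdgfra, a receptor of paraxial mesoderm, fell from 59.1, 44.01 and 41.6 TPM to 10.9, 14.8 and 10.8 TPM, and the acetylcholine receptor subunit genes Chrna3 and Chrnb4 fell by 2.98 and 4.37.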
